A study of Sus scrofa with 32 samples.

Results

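CD4, CD8A, CD8B, CD2, CD5 and CD6 encode the coreceptors and accessory molecules that sit beside the T cell receptor at the surface of lymphocytes. CD4 binds MHC class II and CD8 binds MHC class I, and both bring the kinase LCK to the receptor. CD8 is built as a CD8A CD8B heterodimer on most cytotoxic αβ T cells, while CD8A homodimers are carried by intraepithelial T cells, many γδ T cells and, in pigs, natural killer cells. CD2 is an adhesion and costimulatory receptor for CD58 and CD48 family ligands, and CD5 and CD6 are related scavenger receptor cysteine-rich proteins that set the strength of receptor signals, CD6 by binding ALCAM. Pigs are known for CD4 T cells that also carry CD8A, described as activated or memory cells, and for a large blood pool of γδ T cells that lack CD2. The question addressed here was in which combinations the 6 transcripts were found in cells of the ileum and the blood, and what else such cells expressed.

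The 6 genes were found by symbol among the 25880 genes of the deposited matrices, and each symbol matched 1 gene. On the Sscrofa11.1 assembly (RefSeq coordinates) CD8B (ENSSSCG00000008213) lies on chromosome 3 from 57968358 to 57986450 and its neighbour CD8A (ENSSSCG00000008217) from 57999228 to 58029768. CD5 (ENSSSCG00000013115, chromosome 2, 10648973 to 10673479) and CD6 (ENSSSCG00000013111, chromosome 2, 10739560 to 10785548) are likewise neighbours. CD4 (ENSSSCG00000000687) spans 63892129 to 63918547 on chromosome 5 and CD2 (ENSSSCG00000006736) spans 103963802 to 103976971 on chromosome 4. All 6 were detected in each of the 8 libraries.

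The 8 single-cell libraries came from 2 mixed-breed pigs, both 7 weeks old. The ileum of each pig was dissected into 3 samples. These were regions with Peyer's patches only (PP), regions without them (non-PP) and 1 whole cross section (whole ileum). The samples were dissociated and enriched for live lymphocytes. Peripheral blood mononuclear cells (PBMC) of the same pigs were captured too, so that all groups hold 2 libraries and share their animals. The study's enrichment steps mean that shares describe the recovered cells, not the tissue. UMIs (unique molecular identifiers, each standing for 1 captured RNA molecule) summed to between 21134542 and 40111934 per library. Cells were kept at 1250 UMIs, 550 genes and at most 12.5% mitochondrial UMIs, which left 48629 cells, 3776 to 7704 per library, with medians of 2577.5 to 3583.5 UMIs. Between library pairs, 21 to 80 cell barcodes were shared, at most 1.23% of the smaller library. CD3E, an invariant chain of the T cell receptor complex, was found in 22584 of the cells and was not found in 26045.

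The library labelled whole ileum pig 1 went against its label. Pig 1 is labelled female, and Y-linked genes summed to 0.161, 0.224 and 0 CPM (counts scaled to an equal total in every library) in its PP, non-PP and PBMC libraries, but to 207 CPM in its whole ileum library, with a Y-linked UMI in 47.0% of cells. The 4 libraries of pig 2, labelled male, held 119 to 226 CPM. Where leaving it out lost a member's call or moved a count of a state fit, that is stated below. For the other named genes, how many lost their call is given. Shares of cells are given with this library, apart from ranges over left-out libraries at the end. Fits with the pig as a block, and the naming of genes by the same sign in both pigs, used the label of this library as given.

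Shares of cells with a UMI of a gene depend on depth, so each cell was thinned at random to 1250 UMIs before shares were taken, and values from all UMIs are given beside them where they differ in order. CD3E cells, those with and without TRDC, B-like and innate-like cells were still chosen by all their UMIs. The make-up of these denominators therefore still depends on depth. CD3E cells had medians of 3285 and 3431 UMIs in PBMC and of 2443 to 3061.5 UMIs in the ileum. B-like cells were taken for comparison. Whether their UMIs of these genes were free RNA or transcripts of their own was not tested. After thinning, B-like cells held a CD2 UMI in 1.9% to 4.5% of cells and a CD8A UMI in at most 1.3%, and a CD4 UMI in at most 0.16%. Values for 2 libraries of a group are given in the order pig 1, pig 2.

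In cells with CD3E, CD2 was the most often found of the 6 transcripts and CD4 the least. CD2 was found in 45.4% and 48.1% of CD3E cells in PP, 56.9% and 65.5% in non-PP, 57.2% and 47.6% in whole ileum and 38.6% and 44.7% in PBMC. Both blood libraries thus lay below all 6 ileal ones. CD6 was found in 10.0% to 12.5% of ileal CD3E cells (median 10.5%) and in 3.78% and 7.11% of blood ones, again without overlap. CD5 gave 17.3% to 24.8% in the ileum (median 23.8%) and 9.70% and 19.4% in blood, and these ranges overlapped. For CD2 and CD6 the exact two-sided permutation test of 6 against 2 libraries gave p = 0.0714, the smallest that this design allows, or 0.194 after adjustment over 19 measures. This test, here and below, takes libraries as independent. The ileal ones are 3 samples from each of the same pigs as the blood, so its p-values overstate the replication.

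**Figure D1:**
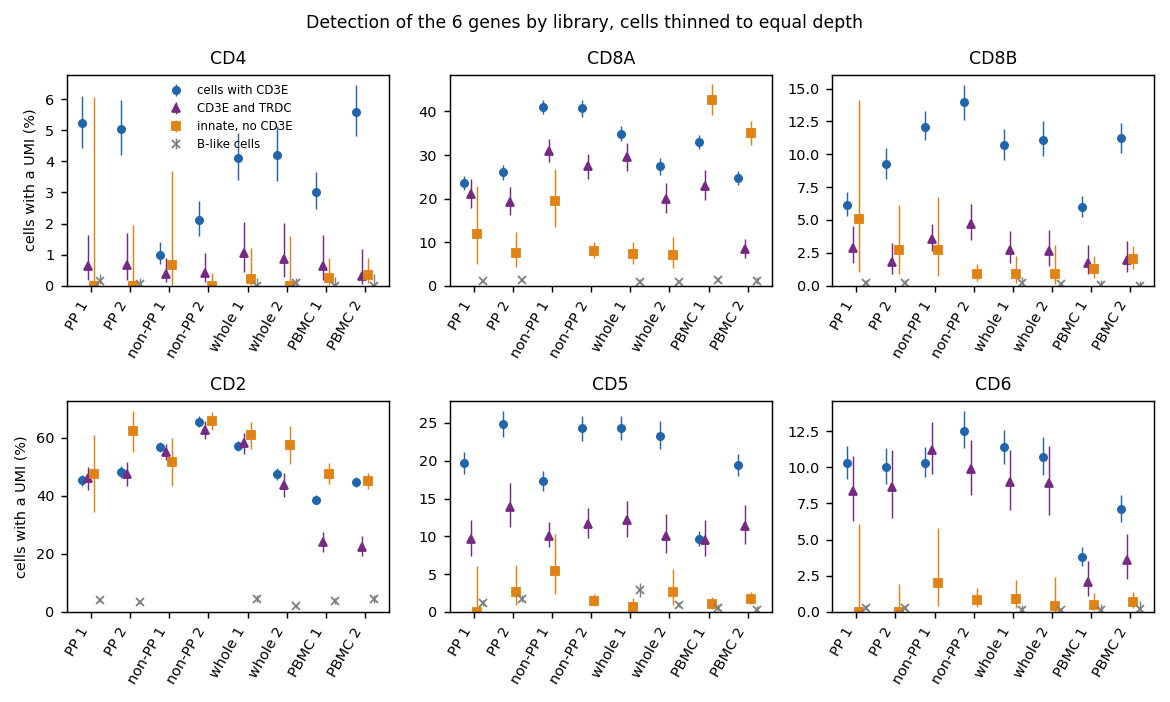
Percent of cells with a UMI of each of the 6 genes (y axis, scale differs by panel) in each library (x axis), after thinning, for CD3E cells, CD3E cells with TRDC, innate-like cells without CD3E and B-like cells, with 95% exact binomial intervals that cover counting error only. The groups of cells were chosen by all UMIs, before thinning. CD2 in CD3E cells with TRDC sat at 43.6% to 62.6% in the 6 ileal libraries and at 24.1% and 22.5% in blood, and B-like cells lay near 0 for CD4 and CD8B.

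The coreceptors split the dissections. CD4 was found in 5.22% and 5.03% of CD3E cells in PP, 0.999% and 2.11% in non-PP, 4.10% and 4.19% in whole ileum and 3.02% and 5.59% in PBMC. The non-PP libraries were the lowest pair. CD8A ran the other way, at 23.6% and 26.0% in PP, 41.0% and 40.7% in non-PP, 34.9% and 27.4% in whole ileum and 32.9% and 24.7% in PBMC. CD8B was found in 6.15% and 9.28% of CD3E cells in PP and in 12.1% and 14.0% in non-PP. PP and non-PP did not overlap for CD4, CD8A, CD8B or CD2, but 2 libraries against 2 cannot give an exact permutation p below 0.333, and that is the value for each of the 4 genes. How many of all genes stood apart in this way is not given here. CD79A, a B cell receptor chain, was found in 10.9% and 7.99% of PP CD3E cells and in 1.44% and 1.42% of non-PP ones, so that B cell RNA moved with the dissection. Its part in the PP values was not tested, and leaving out CD3E cells with CD79A turned no direction of the 4.

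Levels, as UMIs summed over all CD3E cells of a library and tested with edgeR's quasi-likelihood test over 11135 genes, gave the same order. CD8A was at 239 and 258 CPM in PP and 516 and 466 CPM in non-PP, a log2 fold change of 0.99 ± 0.19 (SE, n = 2 against 2, edgeR adjusted p = 0.032). It was the 1 member of 6 called in this contrast, against 5.88% of all genes tested. The call was lost without either PP or either non-PP library (edgeR adjusted p 0.0555 to 0.186) and with thinned cells (0.056). CD4 was at 32.2 and 32.3 CPM in PP and 6.54 and 15.9 CPM in non-PP, −1.55 ± 0.41 on the log2 scale with an edgeR adjusted p of 0.071, which did not pass. CD4 passed edgeR's test with the pig as a block (0.022) and with thinned cells (0.0277). That block counted whole ileum pig 1 as pig 1, against its Y-linked RNA. Over the edgeR and DESeq2 alternatives with all libraries the adjusted p of CD4 ran from 0.0027 to 0.078. CD8B (0.91), CD2 (0.61), CD6 (0.31) and CD5 (0.03) did not pass. In the same contrast, 6 of the 10 tested entries of the cytotoxic list were higher in non-PP (GNLY, GZMB, GZMA, FASLG, NKG7 and PRF1) and 3 of the follicular help list were lower (CXCR5, PDCD1 and SH2D1A).

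Between blood and ileum, 27.7% of genes were called in CD3E cells and 1 member of 6 was. CD6 was lower in blood, with 78.9 and 80.2 CPM in PP, 95.4 and 101 CPM in non-PP, 88.8 and 76.5 CPM in whole ileum and 32.1 and 62.7 CPM in PBMC (log2 fold change −0.79 ± 0.24, edgeR adjusted p = 0.046). That call was not firm. Leaving out any 1 of the 8 libraries but PBMC pig 2 lost it (edgeR adjusted p 0.0703 to 0.127), and without PBMC pig 1 the log2 fold change was −0.38. HBB, the red cell globin, was at 11400 and 1900 CPM in these sums of PBMC and at 7.04 to 247 CPM in the ileum, and the plasma cell gene JCHAIN at 249 and 106 CPM against 289 to 5380 CPM, and their part in the contrast was not tested. CD2 (−0.45, which passed with thinned cells at −0.59, edgeR adjusted p = 0.0254), CD5 (−0.62), CD8A (−0.17), CD8B (−0.07) and CD4 (0.52) did not pass. The ligand genes moved apart, since ALCAM, which binds CD6, was lower in blood CD3E cells (−0.59 ± 0.17, edgeR adjusted p = 0.041) and CD48, of the CD2 ligand family, was higher (0.56 ± 0.15, edgeR adjusted p = 0.031). Of the 19 tested genes of coreceptor and receptor signalling, 4 were higher and 6 lower in blood, among the latter the receptor chains CD3D (−1.09) and CD247 (−1.13), with a median of −0.15 against 0.01 for all genes.

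CD3E cells were next divided by TRDC, the constant region of the δ chain. Between 574 and 1292 cells per library held TRDC (TRDC T cells) and 1573 to 2815 did not. Absence of a TRDC UMI in a cell does not show that the cell is an αβ T cell, since single UMIs are easily missed. CD4 followed the division: it was found in 1.37% to 6.93% of CD3E cells without TRDC and in 0.326% to 1.04% of TRDC T cells.

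In CD3E cells without TRDC, CD8A without CD4 or CD8B was the most common state with a coreceptor in all 8 libraries. It made up 19.3% and 19.9% of these cells in PP, 35.1% in both non-PP libraries, 26.9% and 20% in whole ileum and 31.4% and 20.7% in PBMC. CD8A together with CD8B was found in 4.22% and 7.50% in PP, 11.9% and 13.3% in non-PP, 9.86% and 9.66% in whole ileum and 3.27% and 7.84% in PBMC. CD4 alone accounted for 5.75% and 5.61% in PP, 1.28% and 2.78% in non-PP, 4.93% and 4.96% in whole ileum and 3.09% and 6.47% in PBMC. No coreceptor UMI was found in 42.1% to 67.1% of these cells. PP and non-PP did not overlap for the 3 states named (exact permutation p = 0.333, adjusted 0.452), and between blood and ileum the ranges overlapped.

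CD8A and CD8B were found together more often than their separate frequencies would give. In CD3E cells the ratio of observed to expected co-detection was 2.45 and 2.43 in PP, 1.65 and 1.64 in non-PP, 2.01 and 2.40 in whole ileum and 1.44 and 2.34 in PBMC. Of CD8B cells, 59.5% to 72.0% in the ileum held CD8A, and 47.2% and 58.3% in blood did. With all UMIs this share was 81.6% to 91.3% over the 8 libraries, so that the share of CD8B cells without CD8A depended on depth. The reverse share was lower: CD8B was found in 17.9% to 32.6% of ileal CD8A cells without TRDC and in 9.42% and 27.5% of blood ones.

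CD4 and CD8B were almost never found together. Of CD3E cells without TRDC, none held both after thinning in 6 libraries, and 0.0498% did in whole ileum pig 1 and 0.124% in PBMC pig 2. A count of 0 allows a share of up to 0.107% to 0.191%, depending on the library. CD4 and CD8A overlapped more. In CD3E cells, 17 and 16 PP cells, 2 and 8 non-PP cells, 8 and 7 whole ileum cells and 13 and 9 PBMC cells held both, where independence would give 13.9 to 41.8. The ratio of observed to expected was 0.143 to 0.509 over the 8 libraries, below 1 in each and at or above that of CD4 with CD8B (0 to 0.158). CD5 went with CD4 (ratios 1.3 to 3.07, above 1 in 8 of 8 libraries), and CD6 with CD8B (1.06 to 2.31, also 8 of 8). The crossed pairs leaned the same way in most libraries. CD5 with CD8B gave 0.971 to 1.66 (above 1 in 7 of 8) and CD6 with CD4 0.726 to 3.31 (6 of 8). With CD8A, CD5 gave 0.727 to 1.36 and CD6 0.934 to 1.55 (7 of 8 each). CD5 and CD6 (1.36 to 2.22), CD2 and CD5 (1.04 to 1.35) and CD2 and CD6 (1.05 to 1.34) were each found together above the product of their frequencies in every library. These ratios are a description, with no test.

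**Figure D2:**
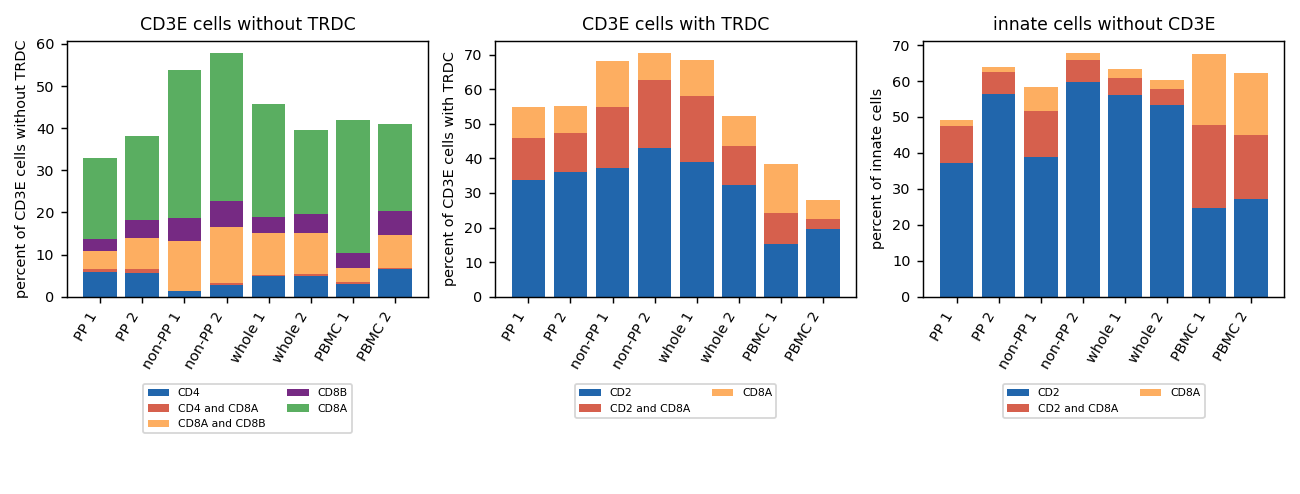
Stacked percent of cells (y axis) that held each combination of coreceptor UMIs in each library (x axis) after thinning, for CD3E cells without TRDC, CD3E cells with TRDC and innate-like cells without CD3E. The space above a bar to 100% is cells with none of the genes, CD4 with CD8A is the thin band at under 1% in the left panel, and the CD2 share of the middle panel is lowest in the 2 PBMC libraries.

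The CD4 CD8A state was defined as a CD3E cell without TRDC or CD8B that held both transcripts. After thinning it made up 12.1% and 13.7% of CD4 T cells (without CD8B) in PP, 6.90% and 11.8% in non-PP, 5.71% and 8.24% in whole ileum and 13.0% and 4.88% in PBMC, resting on 2 to 17 cells per library. With all UMIs the shares were 28.7% and 17.9% in PP, 14.9% and 17.4% in non-PP, 17.9% and 15.7% in whole ileum and 28.1% and 18.1% in PBMC. Blood and ileum overlapped (exact permutation p = 0.786), and the sign of their difference turned from −0.785 to 4.35 percentage points when all UMIs were used. The few cells left wide counting intervals after thinning, such as 0.846% to 22.8% in non-PP pig 1 and 7.11% to 21.2% in PBMC pig 1. With all UMIs the CD8A level of the state was 245 to 342 CPM in 4 ileal libraries and 239 to 255 CPM in PBMC. Each cell of the state had to hold a CD8A UMI, so the gate itself sets a lower bound on this level. CD8B T cells, which were not chosen by CD8A, held CD8A at 640 to 861 CPM in the ileum and 461 to 566 CPM in PBMC. In the 6 libraries with a sum of the state, barcodes of at most 50 UMIs held CD8A at 156 to 273 CPM. The part of free RNA in the state was not tested.

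Cells of the CD4 CD8A state held more UMIs than CD4 cells without CD8A. The gate used all UMIs and asked for CD8A, which deeper cells are more likely to show, so that some gap in depth is built into it. The median of the state was 3886 and 2812 UMIs in PP, 2606 and 2922 in whole ileum and 4493 and 4771 in PBMC, against 2575 and 2543, 2587 and 2266, and 3116 and 3422 UMIs for CD4 cells without CD8A. A doublet score above 0.25 was given to 7.59% and 8.33% of the state in PP, 6.06% and 4.00% in whole ileum and 9.84% and 4.29% in PBMC. In CD4 cells without CD8A it was 6.12% and 7.88%, 4.64% and 6.72%, and 1.92% and 2.53%. The part of doublets in the gene differences below was tested only through the alternative without them. No alternative made depth equal between the 2 kinds of cell, so the part of depth was not tested. Among cells of at least 2500 UMIs, medians in PP pig 1 were 5595 UMIs in the state and 3789 without CD8A. In PBMC they were 6254 and 5080.5 against 3357 and 3546. Complement C1Q genes of macrophages summed to 339 and 774 CPM in CD4 cells without CD8A of the whole ileum and to 0 in the state there, but to 5.65 and 3.92 CPM in PP against 30.6 and 7.70 CPM in the state, and to 0 on both sides in blood. JCHAIN was lower in the state in each of the 6 libraries compared, at 14.6 to 265 CPM against 19.6 to 3680 CPM. The part of these markers in the values of the state was not tested. CD4 itself was found in ileal myeloid-like cells at 23.0 to 66.9 CPM in the 4 libraries with enough of them (6 to 13 UMIs each) and at 0 and 2.67 CPM in blood ones.

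Over all libraries together, 109 of 7494 genes (1.45%) differed between the CD4 CD8A state and CD4 cells without CD8A in the edgeR fit with library as a term, 14 higher and 95 lower. Sums of at least 20 cells of the state existed for PP, whole ileum and PBMC. CD4 cells without CD8A had sums in all 8 libraries, so both non-PP sums entered the fit without a partner. Those 2 sums held C1Q genes at 0 and 2040 CPM and epithelial marker genes at 1410 and 9.85 CPM. Sums of CD8B T, TRDC T and innate-like cells were in the same fit, so the spread behind its p-values came from them too. What these sums did to the calls was not tested. None of the 3 members that did not define the state was called. CD2 was at 645 and 871 CPM in PP, 600 and 672 CPM in whole ileum and 468 and 664 CPM in PBMC in the state, and at 766 and 644, 749 and 576, and 583 and 621 CPM in CD4 cells without CD8A (log2 fold change −0.12, edgeR adjusted p = 0.78). CD5 (−0.23, adjusted p = 0.67) and CD6 (0.17, adjusted p = 0.83) did not pass edgeR's test either. No gene of the 12 lists was called in this fit, though the cytotoxic list had a median of 0.99 and the naive and egress list one of −0.8, against −0.05 for all genes.

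Of the 14 genes called higher, the 10 that the naming rule gave had log2 fold changes of 0.32 to 0.77. They were RPA3 of the DNA replication factor RPA (log2 fold change 0.77), CYB561D2 (0.67), NUDCD2 (0.56), NDUFB6 of respiratory complex I (0.49), MCRIP1 (0.45), the splicing genes SNRPD3 (0.44) and U2AF1 (0.37), ELOC (0.40) and the proteasome genes PSMA2 (0.33) and PSMB2 (0.32). RPA3 was at 381 and 416 CPM in PP, 427 and 309 CPM in whole ileum and 326 and 255 CPM in PBMC of the state, and at 233 and 175, 156 and 240, and 188 and 146 CPM in CD4 cells without CD8A. The state was higher in each of the 6 libraries. Among the genes that fell were SCML4 (−1.34), the cell cycle inhibitor CDKN1B (−1.07), the immediate early factors NR4A2 (−0.92) and BTG2 (−0.83), TNRC6B (−0.89), UBL3 (−0.80), TUT4 (−0.76), CEBPB (−0.74) and ZFP36L2, which speeds the decay of mRNAs (−0.71). SCML4 was at 28.2 and 23.1, 40 and 33.1, and 32.6 and 36.5 CPM in the state and at 65.0 and 72.6, 98.9 and 50.5, and 83.2 and 103 CPM in CD4 cells without CD8A. CLU had the lowest fold (−4.18), but it came from CD4 cells without CD8A of the whole ileum alone, at 114 and 250 CPM. With cells of at least 2500 UMIs 1 gene was called in place of 109, where PP pig 1 and the PBMC libraries alone still had sums of the state. Without library as a term 14 were called, and without whole ileum pig 1 56, PBMC pig 2 56 or PP pig 2 60. Without whole ileum pig 1, 15 of the 20 genes named lost their call.

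The picture differed between blood and ileum. In blood, 126 genes were higher in the CD4 CD8A state (2.36% of 5342) and 132 lower (2.47%). In the ileum the called genes were 44 (0.824%), 11 higher and 33 lower. The test of the difference itself, the interaction of state and tissue, called 22 genes (0.412%), 18 of them more raised in blood. These counts rest on library as a term, without which they were 12 in blood, 0 in the ileum and 0 for the interaction, and on single libraries. Without PBMC pig 2 the 258 blood genes became 36 and without PBMC pig 1 124. The 44 ileal genes became 26 without PP pig 1, 18 without PP pig 2 and 15 without whole ileum pig 1. The 22 became 1 without PP pig 2, 8 without PBMC pig 2, 14 without PBMC pig 1, 10 without whole ileum pig 2 and 37 without whole ileum pig 1.

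In blood, cytotoxic genes rose in the state, in a comparison within 2 PBMC libraries. The fit held 6 libraries, 4 of them ileal, so the spread behind its p-values came from both tissues. Which of the blood genes below kept their call without library as a term or without PBMC pig 2 is not given here. Of the 9 tested entries of the cytotoxic list 7 rose and 1 (CTSW, −0.68) fell, with a median of 1.5 against 0.0 for all genes. GZMA (ENSSSCG00000016903), a granzyme, was at 528 and 1030 CPM in the state and 170 and 227 CPM in CD4 cells without CD8A of the PBMC libraries (log2 fold change 1.85 ± 0.19, edgeR adjusted p = 2.9e-07). GNLY, the pore-forming granulysin, was at 4380 and 2640 CPM against 1950 and 648 CPM (1.5 ± 0.16, edgeR adjusted p = 2.9e-07). The T cell chemokine CCL5 (1.19), GZMK (1.41), NKG7 (1.08), perforin PRF1 (1.60), GZMB (0.93) and TBX21, which encodes T-bet (1.3), rose as well. The 2 GZMA entries share a symbol and reads may be split between them, so their separate values are uncertain.

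The naive and egress list fell in the same cells. Of its 7 tested genes 6 were lower in blood. CCR7, the lymph node homing receptor, was at 84.3 and 102 CPM in the state and 305 and 323 CPM in CD4 cells without CD8A (−1.84 ± 0.22, edgeR adjusted p = 4.2e-06). TCF7, a transcription factor of naive and memory T cells, was at 89.8 and 94.9 CPM against 271 and 263 CPM (−1.63 ± 0.21). IL7R (−1.81), LEF1 (−1.24) and S1PR1 (−0.67) were lower too, and the gut homing receptor CCR9 was at −2.40. Of the 5 cycling genes 4 rose, CDK1 by 1.75, TOP2A by 1.68, BIRC5 by 1.13 and PCLAF by 0.99 on the log2 scale. TOP2A, the mitotic topoisomerase, was at 141 and 197 CPM in the state and 31.6 and 63.6 CPM in CD4 cells without CD8A of PBMC.

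In the ileum 1 gene each of the cytotoxic, cycling and naive and egress lists was called, and CCL5 of the type 1 list. GZMB (1.08 ± 0.20, edgeR adjusted p = 0.0035), CCL5 (0.95 ± 0.15, edgeR adjusted p = 0.00019) and PCLAF (0.73 ± 0.15, edgeR adjusted p = 0.013) rose, and KLF2, the factor that drives exit from tissue, fell (−1.19 ± 0.29, edgeR adjusted p = 0.041, and 0.436 without whole ileum pig 1). CCL5 was at 1100 and 878 CPM in PP and 2740 and 1280 CPM in whole ileum in the state, against 461 and 367 and 1020 and 1110 CPM, higher in all 4. TCF7 in the state was at 219 and 254 CPM in PP and 233 and 77.1 CPM in whole ileum against 165 and 206 and 179 and 135 CPM. TOP2A was already high in CD4 cells without CD8A of the ileum, at 150 and 122 CPM in PP and 103 and 252 CPM in whole ileum, and was at 155 and 92.5 and 213 and 132 CPM in the state. Accordingly the interaction was called for TCF7 (−1.77 ± 0.27, edgeR adjusted p = 0.0012), TOP2A (1.75 ± 0.34, edgeR adjusted p = 0.014), GNLY (1.16 ± 0.23, edgeR adjusted p = 0.014) and both GZMA entries (2.32 and 1.33), and it was not called for GZMB (−0.15), CCL5 (0.24) or CCR7 (−1.18, edgeR adjusted p = 0.11). None of these interactions was called when library was not a term, and without whole ileum pig 1 that of GZMA (ENSSSCG00000016902) lost its call (edgeR adjusted p = 0.0632).

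**Figure D3:**
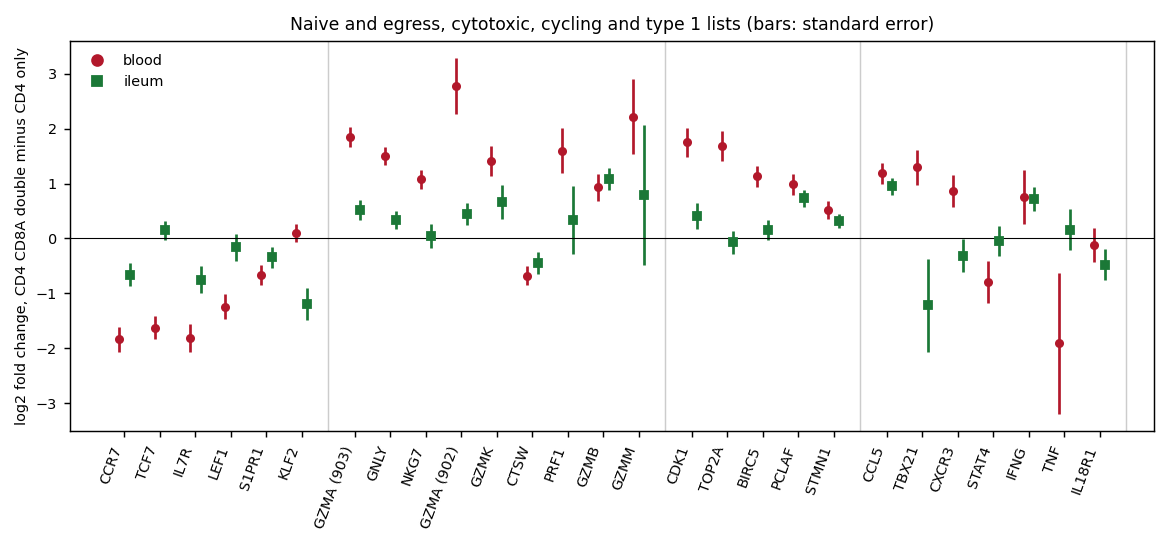
Log2 fold change with its standard error (y axis) of the CD4 CD8A state against CD4 cells without CD8A, in blood (circles) and ileum (squares), for tested genes of the naive and egress, cytotoxic, cycling and type 1 lists (x axis, 1 gene not reported here left out, lists divided by grey lines). GZMA has 2 entries, named by the last digits of their identifiers, and the blood values of CCR7, TCF7 and IL7R lie at −1.84, −1.63 and −1.81 while those of CDK1 and TOP2A lie at 1.75 and 1.68.

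The CD8B cells gave the opposite pole to CD4 cells. CD8B T cells (no TRDC, no CD4) differed from CD4 cells without CD8A in 1201 of 7494 genes (16.0%), 546 higher and 655 lower (448 in all without library as a term). Of 61 named or listed genes called here, 6 lost their call without whole ileum pig 1. CD2 (−0.16), CD5 (−0.36) and CD6 (0.05) were not called between them. All 10 tested entries of the cytotoxic list were higher, with a median of 2.82 against 0.01 for all genes, and 7 of 8 genes each of the regulatory, follicular help and naive and egress lists were lower (medians −1.94, −2.16 and −1.34). The 5 tested MHC class II genes were all higher, with a median of 0.76. RUNX3, the factor tied to the CD8 fate, was higher (1.26 ± 0.14, edgeR adjusted p = 1.1e-08) and ZBTB7B, the factor tied to the CD4 fate, lower (−2.32 ± 0.30, edgeR adjusted p = 1.3e-07).

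The largest folds were at the chemokine XCL1 (5.36), GZMM (4.68), CD96 (4.06), TMIGD2 (4.03) and CCL5 (4.00). XCL1 was at 405 and 577 CPM in PP, 741 and 659 CPM in non-PP, 528 and 821 CPM in whole ileum but 54.1 and 20.8 CPM in PBMC, against at most 25.3 CPM in any CD4 sum. The lowest were C1QA (−5.02), CD40LG (−5.00), LGMN (−4.07), C1QC (−3.82) and APOE (−3.76). CD40LG, the helper ligand for B cells, was at 157 and 153, 139 and 300, 198 and 181, and 88.2 and 99.2 CPM in CD4 cells and at 0.793 to 9.93 CPM in CD8B T cells. C1QA, C1QC, APOE and LGMN are macrophage genes, and C1QA was at 0 in 4 of the 8 CD4 sums and at 822 CPM in non-PP pig 2.

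Within a gate, the level of the accessory receptors differed between blood and ileum. In CD8B T cells 15.5% of genes were called between blood and ileum, and all 4 tested members were lower in blood. CD6 was at 126 and 132 CPM in PP, 128 and 149 CPM in non-PP, 124 and 119 CPM in whole ileum and 47.4 and 74.4 CPM in PBMC (−1.05 ± 0.18, edgeR adjusted p = 0.0050). The related receptor CD5 showed the same order. It was at 257 and 349, 227 and 386, and 336 and 274 CPM in the ileum and 89.9 and 148 CPM in PBMC (−1.32 ± 0.27, edgeR adjusted p = 0.011). CD2 was at 594 to 988 CPM in the ileum (median 666) and 343 and 453 CPM in PBMC (−0.81 ± 0.18, edgeR adjusted p = 0.015). The coreceptor chain that pairs with CD8B followed them. CD8A was at 640 to 861 CPM in the ileum and at 461 and 566 CPM in PBMC (−0.51 ± 0.15, edgeR adjusted p = 0.047). RNA of other cells moved with the contrast too. In CD8B T cells HBB was at 15300 and 1630 CPM in PBMC and at 3.07 to 356 CPM in the ileum, the B cell list at 46.2 and 66.4 CPM in PBMC, 208 to 401 CPM in PP and whole ileum and 5.95 and 14.3 CPM in non-PP, and JCHAIN at 150 and 91.7 CPM in PBMC and 56.8 to 5200 CPM in the ileum. Their part in the member values was not tested.

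All 4 stood without overlap, and how many of all genes did so is not given here. Their calls were not equally firm. That of CD6 held without each library in turn (edgeR adjusted p at most 0.032) and was lost with thinned cells (adjusted p 0.136, log2 fold change −0.65). Those of CD2 and CD5 were lost without PBMC pig 1 (edgeR adjusted p 0.156 and 0.0969), and that of CD8A without any of 7 libraries, whole ileum pig 1 among them (adjusted p 0.117), and with thinned cells (adjusted p 0.163, log2 fold change −0.40). In CD4 T cells, where 14.8% of genes were called, none of the members passed. CD5 was at 310 to 447 CPM in the ileum and 226 and 249 CPM in PBMC (−0.48 ± 0.15, edgeR adjusted p = 0.055), CD2 at −0.23, CD6 at −0.22 and CD8A at 0.14. Between PP and non-PP no member was called in CD4 T (1.76% of genes called), CD8B T (0.261%) or TRDC T cells (0.346%). In TRDC T cells the adjusted p over the edgeR and DESeq2 alternatives ran from 0.019 to 0.89 for CD8A and 0.031 to 0.82 for CD8B.

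**Figure D4:**
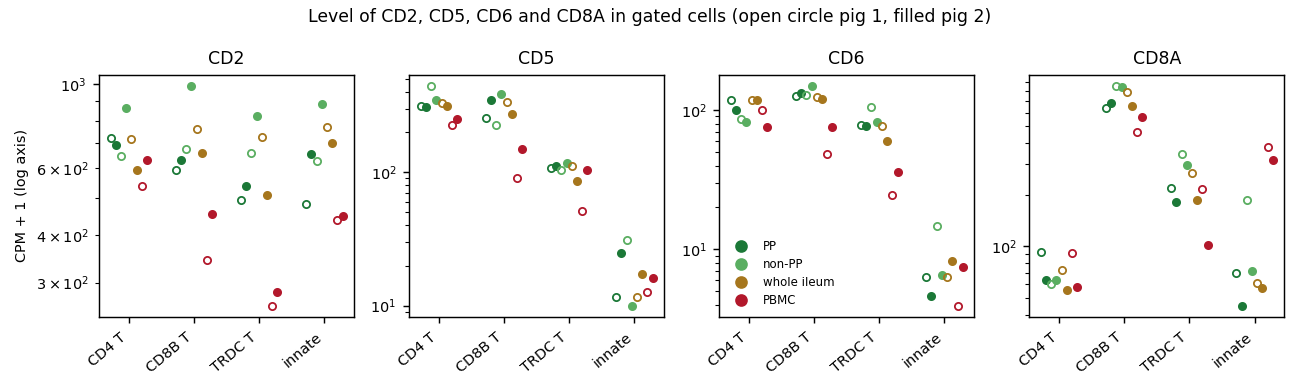
Level in CPM plus 1 (y axis, log scale) of CD2, CD5, CD6 and CD8A over the summed cells of each gate (x axis) in each library, coloured by dissection or blood. In CD8B T cells both PBMC libraries lie below the 6 ileal ones for all 4 genes, in TRDC T cells for CD2 and CD6, and in innate-like cells CD8A lies above them.

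In TRDC T cells, CD2 divided blood from ileum. Thinned, it was found in 46.0% and 47.4% of TRDC T cells in PP, 55.0% and 62.6% in non-PP, 58.1% and 43.6% in whole ileum and 24.1% and 22.5% in PBMC. With all UMIs the shares were 64.5% to 86.1% in the ileum and 48.8% and 37.9% in PBMC. CD6 followed, at 8.36% to 11.2% in the ileum (median 8.92%) and 2.07% and 3.58% in PBMC. CD5 did not, at 9.65% to 13.9% in the ileum and 9.57% and 11.4% in PBMC. CD8A was found in 19.2% to 31.0% of ileal TRDC T cells and in 23.0% and 8.31% of those in blood, where the pigs lay far apart. For CD2 and CD6 the exact permutation p was 0.0714 (0.194 adjusted), the smallest possible.

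The edgeR fit on summed TRDC T cells called CD2 and CD6 among 14.7% of genes. CD2 was at 493 and 536 CPM in PP, 655 and 820 CPM in non-PP, 723 and 509 CPM in whole ileum and 259 and 283 CPM in PBMC (−1.18 ± 0.18, edgeR adjusted p = 0.0041). CD6 was at 77.8 and 76.5, 105 and 80.8, 76.3 and 58.9, and 23.4 and 35.1 CPM (−1.43 ± 0.22, edgeR adjusted p = 0.0047). Both calls held without each library in turn, with adjusted p of at most 0.035. CD8A (−0.61, adjusted p = 0.20) and CD5 (−0.45, adjusted p = 0.27) did not pass edgeR's test. With the pig as a replicate block, which counted whole ileum pig 1 as pig 1, CD8A passed (−0.67, edgeR adjusted p = 0.0426). Over the edgeR and DESeq2 alternatives with all libraries the adjusted p of CD8A ran from 0.0059 to 0.13. With 1 blood library left, whose spread is then taken from the other groups, CD8A was at −1.25 without PBMC pig 1 (edgeR adjusted p = 0.0245) and CD5 at −1.05 without PBMC pig 2 (edgeR adjusted p = 0.0212). Of the 19 signalling genes 6 were lower in blood TRDC T cells and none higher, with LCK at −0.70 and FYN at −0.72, the kinases that act next to CD4, CD8 and CD2.

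CD2 and CD8A together defined 4 kinds of TRDC T cell. Cells with both made up 12.2% and 11.4% in PP, 17.7% and 19.5% in non-PP, 19% and 11% in whole ileum and 8.77% and 2.77% in PBMC. Cells with CD2 and no CD8A made up 32.4% to 43.1% in the ileum and 15.3% and 19.7% in PBMC. CD2 thus separated blood from ileum with or without CD8A, and CD8A alone did not. Cells with CD8A and no CD2 made up 7.79% to 13.3% in the ileum and 14.2% and 5.54% in PBMC. Neither was found in 45.2% and 44.8% in PP, 31.7% and 29.4% in non-PP, 31.6% and 47.6% in whole ileum and 61.7% and 72.0% in PBMC. The share with neither was above all ileal libraries in both blood ones, and the share with both below them (exact permutation p = 0.0714 each). CD8A was found more often where CD2 was, in 26.6% of TRDC T cells with CD2 against 16.4% of those without it in PP pig 1, and in the same direction in each of the 8 libraries (12.3% to 36.4% against 7.14% to 29.6%). CD8B was rare, at 1.75% to 4.67%.

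TRDC T cells with a CD2 UMI differed from those without in 502 of 7496 genes in the edgeR fit with library as a term, 167 higher (2.23%) and 335 lower (4.47%). The count was 49 without library as a term, 46 with thinned cells and 293 without whole ileum pig 1, where 10 of 42 named or listed genes lost their call, XCL1, both GZMA entries, FASLG, GZMK, NKG7, LCP2 and LEF1 among them. Of the 5 members tested, CD8A, CD8B and CD6 were called higher with CD2. CD8A was at 265 and 213 CPM in PP, 361 and 311 CPM in non-PP, 297 and 236 CPM in whole ileum and 265 and 158 CPM in PBMC with CD2, and at 90.7 and 88.6, 262 and 209, 115 and 95.4, and 116 and 36.6 CPM without it (1.11 ± 0.15, edgeR adjusted p = 1.3e-05). It was higher in 8 of 8 libraries. CD8B, at 22.4 to 49.3 CPM with CD2 and 4.26 to 25.6 CPM without, was higher by 1.54 ± 0.25 (edgeR adjusted p = 0.00015). CD6, at 28.8 to 106 CPM with and 8.66 to 97.1 CPM without, was higher by 1.12 ± 0.20 (edgeR adjusted p = 0.00018). CD5 (0.46) and CD4 (1.13) did not pass. A cell with more UMIs is more likely to show CD2. Medians were 4482.5 and 3687 UMIs with CD2 and 2190 and 2338 without it in PBMC, and 2627.5 to 3230 against 2343.5 to 2922 in the ileum. Which of the other genes named below kept their call with thinned cells is not given here. With thinned cells CD8A still passed (edgeR adjusted p = 0.032), while CD8B and CD6 did not (0.515 and 0.356) and CD5 stood at −0.03, and CD6 was also lost without library as a term (adjusted p = 0.0673).

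RHEX and BLK had large folds between the TRDC T cells without and with CD2. RHEX, a regulator of erythropoietin signalling, was at 454 and 674 CPM in PP, 345 and 435 CPM in non-PP, 489 and 465 CPM in whole ileum and 1140 and 1170 CPM in PBMC without CD2, and at 7.33 to 80.5 CPM with CD2 (−4.46 ± 0.19, edgeR adjusted p = 1.4e-20). BLK, a SRC family kinase known from B cells and γδ T cells, was at 187 and 264, 102 and 218, 213 and 197, and 298 and 499 CPM without CD2 and at 11.6 to 47.6 CPM with it (−3.17 ± 0.25, edgeR adjusted p = 5.4e-13). Both were higher without CD2 in every library, blood and ileum alike. FCER1A (−3.22) and MAF (−2.55) fell as well. IL26, a cytokine of type 17 cells, was at 45.4 to 183 CPM without CD2 and 7.61 to 47.9 CPM with it in the ileum, and at no more than 2.13 CPM in blood (−2.10). GATA3 was lower with CD2, most in blood, at 62.9 and 82.2 CPM against 292 and 472 CPM.

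LCK, the kinase bound by CD4 and CD8, and part of the cytotoxic list were higher with CD2. LCK was at 418 to 623 CPM with CD2 and 77.0 to 446 CPM without (1.14 ± 0.16, edgeR adjusted p = 4.4e-06), and with LCP2 it made 2 of 19 signalling genes called, both higher (median 0.13). Of 10 cytotoxic entries 5 rose (both GZMA entries, FASLG, GZMK and NKG7, median 0.92) and none fell. KLRK1, which encodes the activating receptor NKG2D, was at 725 and 738, 1070 and 1330, 905 and 929, and 1000 and 143 CPM with CD2 and at 278 and 264, 818 and 604, 310 and 300, and 440 and 29.8 CPM without (1.27). The transcription factors THEMIS (1.60), EOMES (1.44), TBX21 (1.03) and RUNX3 (0.49) rose, and SATB1 (−1.27), KLF2 (−1.03), IL7R (−1.16) and LEF1 (−0.78) fell. MFAP5 (1.5), FGR (1.28), GPR82 (1.22), SEMA4D (1.19) and XCL1 (1.16) complete the highest called genes with GCG, whose 1115 UMIs in PP pig 1 made its fold of 2.52 and gave 0.69 without that library.

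Epithelial RNA moved with the same division. FABP6 (−2.80), ANPEP (−2.39), SLC51B (−2.28), CCL25 (−2.26), KRT20 (−2.16) and KRT14 (−2.01), genes of enterocytes and epithelium, were among the 10 lowest. FABP6 was at 16600 and 6090 CPM in non-PP without CD2 and at 3410 and 404 CPM with it. The epithelial marker list summed to 1.92 to 1250 CPM in TRDC T cells without CD2 and to 0 to 279 CPM in those with it, and the B cell list to 6.74 to 654 and 9.92 to 418 CPM. Red cell and plasma cell RNA moved with it in some libraries. HBB was at 18600 and 3400 CPM without CD2 and 5110 and 352 CPM with it in PBMC, and at no more than 24.2 and 145 CPM in the ileum. JCHAIN was at 6320 and 9520 CPM without CD2 and 932 and 3160 CPM with it in whole ileum. The part of these markers in the division was not tested.

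**Figure D5:**
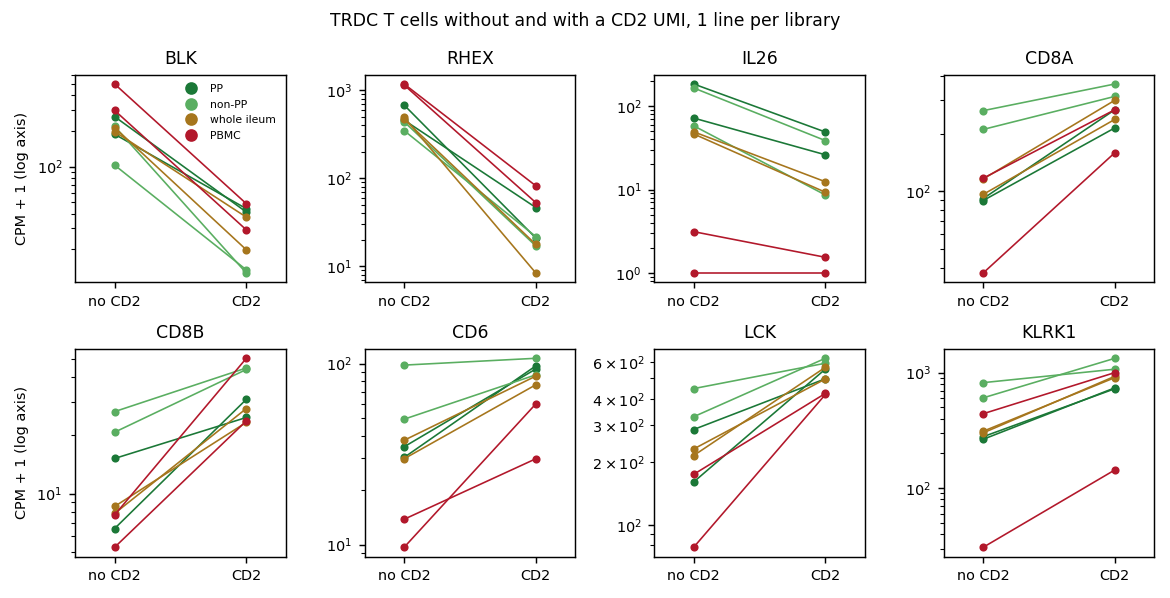
Level in CPM plus 1 (y axis, log scale, range differs by panel) of 8 genes in TRDC T cells without and with a CD2 UMI (x axis), 1 line per library, coloured by dissection or blood. BLK and RHEX fall and CD8A, CD8B, CD6, LCK and KLRK1 rise along every line, and IL26 in blood stays at 2.13 CPM or less on both sides.

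Cells without CD3E held CD2 and CD8A too, in shares that followed the dissection. CD2 was found in 6.08% and 8.39% of them in PP, 29.8% and 57.9% in non-PP, 17% and 5.85% in whole ileum and 18.6% and 25.2% in PBMC. CD8A was found in 1.58% and 2.15%, 19.7% and 8.94%, 3.59% and 1.57%, and 13.6% and 12.7%. The denominators differ in kind, since B-like cells made up 3117 and 3096 of the 4557 and 4468 PP cells without CD3E and 11 and 19 of the 503 and 1174 non-PP ones. CD4 was found in 0.170% to 0.664% of cells without CD3E, and CD4 with CD8A in at most 3 cells of a library. CD8B was found in 0.288% to 1.54% except in non-PP pig 1, at 5.37%. Non-PP pig 1 also had the highest CD5 (9.54%) and CD6 (3.98%) of the 8 libraries in these cells. Whether these were T cells with a missed CD3E was not tested.

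Innate-like cells were taken from the cells without CD3E. The gate set first asked for CD3D, CD3G and TRDC at 0 as well and for markers of group 1 or group 3 innate lymphoid cells, and left 30 to 100 ileal group 1-like cells per library, with 213 and 192 in PBMC. In its ileal sums the antibody chain gene JCHAIN was at 25700 to 74500 CPM against 5120 and 5650 CPM in blood, so markers of antibody-secreting cells were strong in it and their part in its values was not tested. A second gate, chosen after the data had been seen, took cells by the group 1 markers and held no group 3-like cells. It allowed CD3D, CD3G and TRDC and asked for a UMI of FCER1G or TYROBP, the adaptors of natural killer receptors. It held 59 and 186 cells in PP, 149 and 935 in non-PP, 457 and 229 in whole ileum and 798 and 1151 in PBMC. It held CD3D and CD3G at 755 to 2860 CPM together, where CD3E cells held them at 715 to 1920 CPM, and JCHAIN at 44.1 to 9400 CPM. These markers thus did not set the second gate apart from T cells, and whether its cells were T cells with a missed CD3E was not tested.

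In both gates CD8A was higher in blood. In the second, CD8A was found in 11.9% and 7.53% of cells in PP, 19.5% and 8.02% in non-PP, 7.22% and 6.99% in whole ileum and 42.7% and 35.1% in PBMC. In the group 1-like cells of the first, ileal shares were 3.33% to 22.5% (median 9.46%) and those in PBMC 31.5% to 32.8% (exact permutation p = 0.0714, 0.194 adjusted). As a level in the second gate CD8A was at 68.9 and 43.7 CPM in PP, 185 and 71.1 CPM in non-PP, 59.7 and 56.0 CPM in whole ileum and 375 and 318 CPM in PBMC. That is a log2 fold change of 2.38 ± 0.30 (edgeR adjusted p = 0.00040), beside 19.9% of genes called. In the first gate, with group 1-like and group 3-like cells summed together, it was 1.66 ± 0.33 (edgeR adjusted p = 0.0071, beside 17.1% called). The call was lost without PBMC pig 1 and with thinned cells (edgeR adjusted p = 0.0728).

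CD2 was common in innate-like cells of both tissues. In the second gate it was found in 47.5% and 62.4% in PP, 51.7% and 65.8% in non-PP, 60.8% and 57.6% in whole ileum and 47.6% and 45.1% in PBMC. Its level, 482 to 886 CPM in the ileum and 437 and 447 CPM in PBMC, did not pass (−0.53, edgeR adjusted p = 0.071). The combinations therefore differed by tissue. In the ileum most cells with either gene had CD2 and no CD8A, 37.3% and 56.5% in PP, 38.9% and 59.8% in non-PP and 56.2% and 53.3% in whole ileum, against 24.6% and 27.2% in PBMC. Cells with both genes made up 4.37% to 12.8% in the ileum and 23.1% and 17.9% in PBMC, and cells with CD8A and no CD2 1.61% to 6.71% and 19.7% and 17.2%. CD5 (−1.90 ± 0.34, edgeR adjusted p = 0.0040) was called lower in blood in the first gate and not in the second (−0.06, adjusted p = 0.96). No member was called between PP and non-PP in either gate, where 0.0333% and 0.154% of genes were.

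Few genes were called between innate-like cells with and without CD8A. In the second gate no gene of 7419 was called by edgeR, and 420 had an unadjusted p under 0.05. In the first gate 149 were called (2.0%), but cells with CD8A reached 20 per sum in the 2 PBMC libraries alone, and the count was 14 without PBMC pig 2, 57 without PBMC pig 1 and 91 without whole ileum pig 1, where GZMM, CD244, ADGRG1 and LGALS1 lost their call. The highest called genes of the first gate were TESK2 (2.08), GZMM (1.90), NFIL3 (1.87), CD244 (1.75) and ADGRG1 (1.71), and AQP3 (−2.07) and LGALS1 (−1.90) were among its lowest. Cells without CD8A had sums in 8 libraries, so ileal sums without a partner entered these folds. For the genes named as highest, the gap within each PBMC library was smaller than the fold of the fit. NFIL3 was at 50.2 and 66.5 CPM with CD8A and 33.1 and 34.9 CPM without it, and CD244 at 158 and 148 against 69.0 and 65.2 CPM. The other lowest genes rested on few UMIs. NUPR1 had 0 UMIs in both sums with CD8A and 15 and 84 in those without, MS4A2 had 0 and 2 against 9 and 36, and S100A12 had 0 and 2 against 2 and 76, nearly all of them from PBMC pig 2.

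Across 42 sums of library and cell group (T, innate-like, B-like, myeloid-like and epithelial-like), the members tracked different genes. CD8A was most like CCL5 (Pearson r of log2(CPM + 1) 0.93), IFNG (0.93) and GZMA (0.92). CD8B was most like GZMK (0.92), IFNG (0.92) and CD6 (0.91), and CD6 in turn like CD8B (0.91), CD8A (0.90) and IFNG (0.89). CD2 went with LAX1 (0.94), FYN (0.94) and CD52 (0.93), and CD5 with LAT (0.88), CST7 (0.87) and SLA2 (0.86). CD4 stood apart, with TNNI2 (0.89), TNFAIP2 (0.77) and HPSE (0.75) as its nearest genes. Among the members CD8A and CD8B were closest (0.91), and CD4 correlated with CD8A at 0.38 and with CD5 at 0.60. The sums share libraries and differ in depth, so these values are a description.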

How the data were processed

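Single-cell RNA-seq (10x Chromium, 3' chemistry) of ileum and PBMC from 2 pigs was used, 32 listed sequencing runs that make 8 libraries. The authors deposited raw UMI counts per gene and barcode, made with CellRanger from reads aligned to Sscrofa11.1 with a modified annotation. These counts precede the authors' removal of ambient RNA and doublets and their normalization. Free RNA therefore remains: barcodes of at most 50 UMIs held CD2 at 261 to 580 CPM, CD8A at 156 to 369 CPM and CD4 at 1.57 to 19.7 CPM. Symbols came from the files and a supplied name table, and 7170 of 25880 genes stayed unnamed. Cells and gates were rebuilt here from the study's thresholds and from marker genes, and the authors' annotation was not used. Doublets were kept and scored per library (Scrublet method in scanpy 1.11.5, expected rate 0.07), with 2.75% to 3.93% of cells above 0.25. The members, lists and gates were chosen with earlier results of these data known. Of 7 Y-linked genes looked for, EIF2S3Y, UTY and USP9Y were not found by symbol, and the CPM of the others was summed.

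Cells were gated on all their UMIs and then thinned to 1250 UMIs for shares. Libraries were compared by exact permutation of the difference of means, with Benjamini-Hochberg adjustment over 19 measures per contrast, and intervals are exact binomial (Clopper-Pearson, 95%). For levels, the UMIs of gated cells were summed per library and tested with edgeR 4.0.16 (TMM, filterByExpr, quasi-likelihood) over all genes at an adjusted p below 0.05. The permutation tests and the main level fits did not use the pairing by pig. States within a library were fitted with library as a term on sums of at least 20 cells. All states were fitted together, including sums whose partner state was missing in that library. The separate blood and ileum fits of the CD4 CD8A state and their interaction used only CD4 cells of libraries with both states. Genes that define a gate or state were not tested in it. The study's expression tests were over cells and those here are over libraries. P-values for levels are set against the spread between libraries of 2 animals. Those of fits with library as a term are set against the spread that remains between sums once library differences are removed. Genes are named by rule as the 10 or 5 called genes with the highest and lowest fold among those of at least 50 CPM with a symbol and the same sign in both pigs, plus the 6 members and the listed genes that passed. Genes named beside these in the blood and ileum fits were called members of the lists. Same-numbered libraries come from the same labelled pig. Over 2260 genes, their deviations from the group means correlated at 0.76 (PP with non-PP), 0.67 (PP with PBMC) and 0.66 (non-PP with PBMC), and at −0.15, −0.03 and −0.13 where whole ileum was in the pair. DESeq2 1.42.0, other filters, gates, blocks and left-out libraries were alternatives. Scripts ran in Python 3.11.15 and R 4.3.3 and were tested on simulated data. No sequences are printed, since none of the references used here holds them. A gene of the naive and egress list is not reported here.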

Additional observations from a re-analysis of the deposited data

Results flagged for a closer look

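Among 55 groups of 6 ileal values, 4 held a library farther from the rest than Dixon's 95% value of 0.625 allows, where chance alone flags about 1 group in 20. Each of the groups pooled PP, non-PP and whole ileum, which differ in their cells. All 4 flagged values lay at non-PP pig 1. CD4 was found in 0.671% of its innate-like cells of the second gate (gap over range 0.674), with 0 and 1 CD4 UMIs in those with and without CD8A. The level of CD5 in its CD4 T cells was 447 CPM (0.701). In innate-like cells of the second gate its CD8A level was 185 CPM (0.806) and its CD6 level 13.8 CPM (0.648). That CD6 level rested on 2 and 3 UMIs in cells with and without CD8A.

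The difference between the CD4 CD8A state and CD4 cells without CD8A itself differed between blood and ileum for 22 genes by the edgeR interaction test. As log2 differences, blood minus ileum, genes of cell division were CDCA8 (2.56), SGO2 (2.28), UBE2C (2.21), TPX2 (1.90), TOP2A (1.75), CENPF (1.58), KPNA2 (1.58), CKS2 (1.09) and HMGB2 (0.98). Cytotoxic genes were GZMA (2.32 and 1.33 for its 2 entries) and GNLY (1.16). The others above 0 were ENSSSCG00000038719 (2.85), PIM1 (2.12), CTSD (1.44), C15orf48 (1.42), CD99 (1.11) and IFI6 (0.78). Below 0 were LTB (−0.88), PDK1 (−1.74), TCF7 (−1.77) and ENSSSCG00000036224 (−3.36).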

How the results depend on the processing

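Depth, 2 animals and shared droplets limit all values. Shares of cells with a UMI miss cells whose RNA was not captured and include background UMIs, sums of under 20 cells were not tested, and thinned cells left the CD4 CD8A state and its interaction too few cells to be fitted, so these were not run. The causes of the changes below were not tested, apart from fewer samples, genes or cells where the alternative removes them.

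Counts of called genes moved most. For the CD4 CD8A state, 109 genes became 202 with DESeq2, 184 with no filter and 1 with cells of at least 2500 UMIs. The 22 interaction genes became 8, 35 and 37, the 44 ileal genes 15, 103 and 28 (with deep cells PP pig 1 was the 1 ileal library left with a sum of the state, of 53 cells), and the 258 blood genes 112 with DESeq2. With thinned cells the 1201 genes of CD8B T cells became 558, the 502 of TRDC T cells with CD2 46 and the 149 of innate-like cells with CD8A 61. That last count was 242 with no filter, 57 with deep cells and 0 in the second gate. For blood against ileum, thinning gave 1823 in place of 3084 genes in CD3E cells, 351 in place of 868 in CD4 T and 411 in place of 1248 in CD8B T cells. No filter gave 1961 in CD8B T and 2239 in place of 1321 in TRDC T cells, and the first innate gate went from 513 to 331 with DESeq2, 947 with no filter and 1424 in the second gate. For non-PP against PP, DESeq2, no filter and thinning gave 997, 1223 and 218 in place of 655 genes in CD3E cells. In CD4 T cells 103 genes became 388 with no filter, 52 without doublets and 17 thinned. In CD8B T cells 21 became 56 with DESeq2, 275, 0 and 2, in TRDC T cells 31 became 139, 633, 15 and 5, and in innate-like cells 1 became 7 with DESeq2, 54 with no filter and 11 in the second gate.

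The replicate block decided many calls. Without a term for library or pig, and with pig as a block in place of library, the CD4 CD8A state had 14 and 16 genes, the interaction 0 and 0, blood 12 and 13, ileum 0 and 0, CD8B T cells 448 and 497 and TRDC T cells with CD2 49 and 52. Of 197 single-gene results 119 lost their call without the block and 2 turned. For libraries compared between tissues, pig as a block raised the non-PP against PP counts to 1056 in CD3E, 67 in CD8B T and 103 in TRDC T cells, and of 46 single-gene results CD4 in CD3E cells between non-PP and PP and CD8A in TRDC T cells between blood and ileum gained a call and the other 44 kept theirs.

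Single genes that turned sign were ADGRG1 and CD244 in the second gate (−0.23 and −0.21) and NFIL3 when thinned (−0.66), with no block (−0.86) or with the pig block (−0.85). None of the other turned values had been called. The CD2 interaction of −0.09 was 0.16 with deep cells, 0.01 with no block and 0.0 with the pig block, and that of CD5 0.02 with deep cells. CD5 with CD2 in TRDC T cells was −0.03 thinned, and CD5 with CD8A in innate-like cells 0.87 thinned and 0.52 in the second gate. Between non-PP and PP, CD2 was −0.01 in CD4 T cells without doublets and 0.19 thinned and 0.39 in the second gate in innate-like cells, CD5 was −0.01 and −0.16 in CD3E cells and −0.07 and −0.08 in TRDC T cells without doublets and thinned, and 0.21 thinned in innate-like cells, and CD6 was −0.1 thinned in CD8B T cells.

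Shares, in percentage points, turned for blood minus ileum at CD4 without CD8A (−0.177 with the summed CD3 gate), CD8A alone (−3.23 with 2 CD3E UMIs, −0.547 without CD79A), the CD4 CD8A state among CD4 T cells (4.35 with all UMIs, 2.26 with 2 CD3E UMIs) and among CD3E cells without TRDC (0.843 and 0.0128), CD2 in innate-like cells (−11.3 in the second gate), and CD8A and CD8B in CD3E cells (3.06 and 0.58 with all UMIs). For non-PP minus PP, CD6 in CD3E cells was −0.947 with the summed gate and −0.043 with 2 UMIs.

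With each library left out in turn, where a group left with 1 library is assumed to vary like the others, the counts of called genes for blood against ileum ranged from 1872 to 3035 in CD3E cells, 419 to 930 in CD4 T, 618 to 1304 in CD8B T, 794 to 1129 in TRDC T and 258 to 661 in innate-like cells, and for non-PP against PP from 84 to 862, 16 to 105, 0 to 24, 0 to 45 and 0 to 2. They ranged from 56 to 109 for the CD4 CD8A state (15 to 65 in the ileum, 36 to 308 in blood, 1 to 37 for the interaction), 910 to 1220 for CD8B T cells, 293 to 497 for CD2 in TRDC T cells and 14 to 131 for CD8A in innate-like cells. The shares for blood minus ileum that turned had their lowest and highest values with 1 or the other PBMC library left out, and ranged over −0.588 to 1.98 percentage points for CD4, −7.55 to 0.671 for CD8A and −4.57 to 0.652 for CD8B in CD3E cells, −1.71 to 0.117 for CD5 in TRDC T cells, −4.85 to 3.28 for the CD4 CD8A state among CD4 T cells, and −1.13 to 2.25 for CD4 without CD8A and −5.35 to 5.39 for CD8A alone among CD3E cells without TRDC. For non-PP minus PP the ranges were −4.99 to 2.0 for CD5 in CD3E cells, −3.02 to 1.26 for CD5 in TRDC T cells, and −3.75 to 15.8 for CD2 and −0.774 to 12.8 for CD8A in group 1 innate-like cells. Log2 fold changes for blood minus ileum were −0.01 to 0.92 for CD4 and −0.8 to 0.41 for CD8B in CD3E cells, −0.2 to 0.45 for CD8A in CD4 T and −0.67 to 0.17 for CD8B in TRDC T cells. Those for non-PP minus PP were −0.21 to 0.25 for CD5 in CD3E, −0.1 to 0.36 for CD2 in CD4 T, −0.39 to 0.26 for CD5 in CD8B T, −0.06 to 0.09 for CD5 in TRDC T and −1.11 to 0.53 for CD2 in innate-like cells. With CD8A in innate-like cells they were −5.36 to 2.36 for CD6, −4.98 to 1.68 for CD8B and −3.97 to 1.41 for CD4, and the CD2 interaction was −0.3 to 0.03.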
